A study of Homo sapiens with 16 samples.

Results

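G-quadruplex (G4) peaks found after knockdown of BAZ2A were compared with those of control cells, peak by peak, in 2 deposited lists that hold 7589 of the 31050 peaks of the series. The siBAZ2A list held 4257 BG4 peaks and the siControl list 3332. Peaks with at least 1 base in common were called shared in the siBAZ2A list and kept in the siControl list. Gained peaks were those of the siBAZ2A list with no such partner, and lost peaks those of the siControl list with none. These words name membership of a list and not a tested change.

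The cells were A549, an established human lung carcinoma line of epithelial origin. They were transfected with 71 nM siRNA for 48 hours, either a control siRNA (siControl) or siRNA against BAZ2A (siBAZ2A), with 4 replicates in each group. Both groups shared the transfection and the BG4 antibody, and they differed by the siRNA alone as far as the labels say. The sources used here do not give the number of siRNAs against BAZ2A, the level of BAZ2A left, the depth per sample, or whether the replicates were separate cultures. The other lists of the series serve as references, BG4 peaks after siRNA against BAZ2B (4865 peaks) and peaks of H3K4me3 in siControl cells (18596 peaks).

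A G4 forms when guanine runs of a DNA strand stack into a 4-stranded fold, and many human promoters hold sequences able to do so. BG4 is an antibody fragment that binds the folded form, and in CUT&Tag it directs a transposase to cut and tag the DNA around it. BAZ2A, or TIP5, belongs to the nucleolar remodelling complex NoRC as its large subunit and is known for silencing ribosomal RNA genes and for roles at centromeric and telomeric heterochromatin. H3K4me3 is the histone mark of active promoters.

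The gained peaks numbered 1698, which is 39.9% of the siBAZ2A list (95% Wilson interval 38.4 to 41.4). The lost peaks numbered 779, which is 23.4% of the siControl list (21.97 to 24.8). Gained peaks covered 821 kb and lost peaks 369 kb. The siBAZ2A list was the longer one. When it was shortened to its strongest 3332 peaks by fold, 1109 were gained and 1107 siControl peaks were lost, 2 numbers that must lie close when the lists are equally long. Each list merges its 4 replicates with no value per replicate. Its positions, widths, summits and folds are those of 1 run, whose number in the peak names is above those of the labelled replicates, so it could not be matched to one of them. Therefore no difference between the conditions could be tested, and the intervals given here hold only the error of counting peaks.

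Overlap was nearly always a match of 1 peak with 1 peak. Of 2563 overlapping pairs, 2535 joined a siBAZ2A peak and a siControl peak that overlapped nothing else. Only 4 siBAZ2A peaks spanned 2 siControl peaks, and 10 siControl peaks spanned 2 siBAZ2A peaks. Few loci therefore had a peak that was joined in one list and divided in the other.

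Overlaps of a few bases were rare, but the classes depended in part on the overlap asked for. With at least 50% of both peaks in common, 1895 peaks were gained and 970 lost. The smallest overlap outside chromosome 8 was 26 bases, at chr6:159065475-159065882 in siBAZ2A and chr6:159065857-159066184 in siControl. The next were 62 bases at chr1:161369518-161369816 and 98 bases at chr17:42767109-42767544. Just outside the rule, the gained peak chr3:128930624-128930926 lay 9 bases from the lost peak chr3:128930936-128931234. The gained peaks chr20:30945426-30945771 and chr11:518534-519057 lay 62 and 106 bases from a siControl peak. In all, 24 gained peaks (1.41%, 0.952 to 2.09) and 25 lost peaks (3.21%, 2.18 to 4.69) lay within 1 kb of a peak of the other list.

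The strength of a peak was ranked within its own list by fold enrichment, the authors' own value for each peak, as a percentile where 100 is the strongest. Gained peaks had a median percentile of 33.3 (31.0 to 35.4) in the siBAZ2A list, and shared peaks 62.3 (60.5 to 64.2). Lost peaks had a median percentile of 24.9 (23.1 to 27.9) in the siControl list, and kept peaks 58.3 (56.5 to 60.2). Both unmatched classes thus sat in the lower part of their list. They were not confined to it, since 31 gained peaks lay in the strongest decile of siBAZ2A and 6 lost peaks in that of siControl.

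The unmatched share declined with strength in every step from the weakest to the strongest decile. In siBAZ2A 65.7% of the weakest decile was gained (61.1 to 70.1), 44.8% of the fifth (40.2 to 49.6) and 7.28% of the strongest (5.17 to 10.1). In siControl 51.5% of the weakest decile was lost (46.2 to 56.8), 25.5% of the fifth (21.1 to 30.5) and 1.80% of the strongest (0.826 to 3.86).

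**Figure D1:**
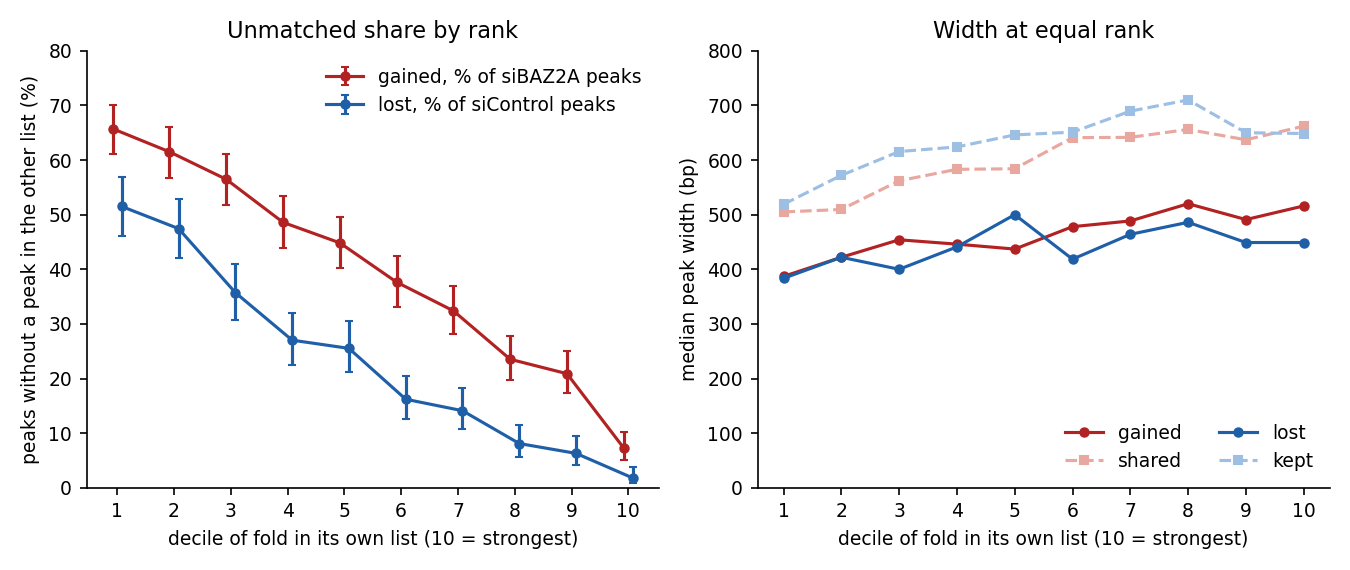
Left, share of peaks without a peak in the other list (%, with 95% Wilson intervals) by decile of fold within the peak's own list, for the 4257 siBAZ2A peaks (gained) and the 3332 siControl peaks (lost). Right, median width in bp of unmatched (solid) and matched (dashed) peaks in the same deciles. The gained share goes from 65.7% in the weakest to 7.28% in the strongest decile, and unmatched peaks are the narrower ones in all 10 deciles of both lists.

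Unmatched peaks were also narrower. The median width was 456 bp for gained peaks (444 to 467) and 619 bp for shared peaks (608 to 627), and it was 426 bp for lost (416 to 448) and 643 bp for kept peaks (633 to 652). The narrowest width in either list was 299 bp, and 187 gained peaks (11.01%) had it, against 62 shared peaks (2.42%). In siControl 99 lost peaks (12.7%) and 34 kept peaks (1.33%) had that width.

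The difference in width was present at equal rank. Within each of the 10 deciles of fold, gained peaks were narrower than shared ones by 87.5 to 163 bp in the median, and lost peaks narrower than kept ones by 135.5 to 232.5 bp. Even in the strongest decile the medians were 516 bp for gained and 662 bp for shared peaks. A wider peak has more bases with which to meet a peak of the other list, so width is not independent of the rule that made the classes.

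Some unmatched peaks were wide all the same. The widest gained peak, chr12:49350435-49351600, spanned 1166 bp at percentile 26.1 and overlapped H3K4me3. It was followed by chr1:40505451-40506555 (1105 bp) and chr2:100907576-100908657 (1082 bp), the latter outside H3K4me3. The widest lost peak, chr2:241847083-241848624, spanned 1542 bp at percentile 19.3, outside H3K4me3, with no siBAZ2B peak either. The next, chr1:155023115-155024294 (1180 bp) and chr17:72983299-72984390 (1092 bp), overlapped H3K4me3 and had a siBAZ2B peak.

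Summits of matched peaks lay close together. Pairs were chosen by overlap, so the rule itself limits how far apart their summits can lie. Over the 2535 pairs the median distance between the siControl summit and the siBAZ2A summit was 64 bp (60 to 67), with quartiles of 27 and 129 bp. In 1055 pairs (41.6%) the summits lay within 50 bp, in 27 they were identical, and in 210 (8.28%) they lay more than 250 bp apart. The siBAZ2A summit had the higher coordinate in 1222 pairs, or 48.2% (46.3 to 50.2), and the median signed shift was -2 bp. The shift thus had no marked side along the chromosome.

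The same distance between other pairs of lists gives a scale for this value. It was 67 bp (63 to 71) over 2673 pairs of siControl and siBAZ2B peaks, and 69 bp (65 to 72) over 3227 pairs of siBAZ2B and siBAZ2A peaks. These comparisons share lists and the overlap rule with each other, and the differences were not tested. The 64 bp between siControl and siBAZ2A was the smallest of the 3 values.

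Summit shift followed strength and not width. By decile of siBAZ2A fold the median distance was 110 bp in the weakest decile (88 to 128), 80 bp in the fifth (68 to 92) and 33.5 bp in the strongest (27 to 37). By decile of width it ranged only from 59 to 70.5 bp.

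The pairs with the most distant summits held a peak of the mitochondrial genome and several of promoters. At chr7:99698374-99699545, a siBAZ2A peak of 1172 bp over a siControl peak of 486 bp, the summits were 951 bp apart. On chromosome M a siBAZ2A peak of 3500 bp and a siControl peak of 3629 bp had summits 925 bp apart. The next were chrX:135991680-135992516 (871 bp), chr22:24951363-24951742 (630 bp) and chr6:32145521-32146147 (612 bp). The 4 nuclear loci and the pair on chromosome M overlapped a peak of the H3K4me3 list, as did 94.6% of all shared peaks.

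Matched peaks were slightly narrower after BAZ2A knockdown. The median of siBAZ2A width minus siControl width was -26 bp (-34 to -19), with quartiles of -134 and 71 bp, and the siBAZ2A peak was the narrower in 1447 pairs (57.1%). The medians were 619 bp in siBAZ2A and 643 bp in siControl. Set beside it, siBAZ2B width minus siControl width had a median of 10 bp (2 to 17), and siBAZ2A width minus siBAZ2B width -35 bp (-44 to -28). Each list carries the peak widths of 1 run, and the part of that run's depth in these widths was not tested. The bases in common made up a median of 76.1% of the joint span of a pair (quartiles 62.8 and 86.7), and under 50% of it in 258 pairs (10.2%).

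The order of strength was only partly kept. Ranked among the same 2535 pairs, fold in siControl and in siBAZ2A had a Spearman rho of 0.659 over pairs, given as a description because neighbouring peaks share a library. A pair moved by a median of 13.8 percentile points in either direction, and 25% of pairs moved by more than 27.6 points. Of the 253 pairs in the top 10% of siControl, 147 (58.1%) were also in the top 10% of siBAZ2A.

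The pairs that moved most in this rank, counted as a percentile among the pairs, lay on several chromosomes. The largest fall was at chr2:109816001-109816301, outside H3K4me3, from fold 14.3 in siControl (percentile 98.5) to 5.27 in siBAZ2A (7.38), with a peak 301 bp wide inside a siControl peak of 553 bp. It was followed by chr13:114830611-114830930 (percentile 86.0 to 4.46) and chr11:65479303-65480254 (84.0 to 4.46), both on H3K4me3. The largest rise was at chr2:233561776-233562360, from fold 5.44 in siControl (percentile 10.6) to 10.4 in siBAZ2A (88.03). The next were chr9:140506414-140506832 (3.31 to 76.7) and chr3:127309628-127310173 (2.13 to 74.0). No error can be given for these single values.

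**Figure D2:**
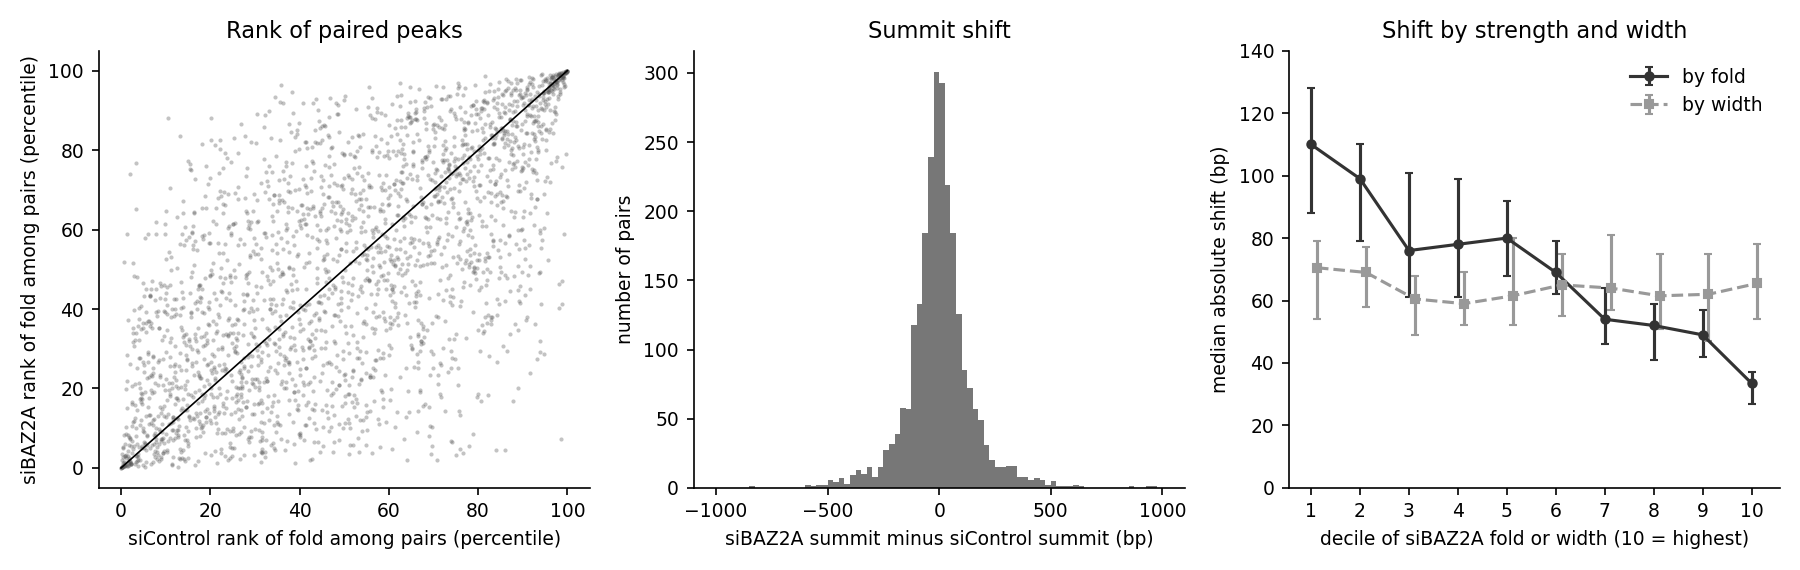
The 2535 pairs that overlap 1 to 1: left, percentile of fold among the pairs in siBAZ2A against siControl, with the line of equal rank; middle, siBAZ2A summit minus siControl summit in bp (bins of 25 bp); right, median absolute shift in bp with its 95% interval by decile of siBAZ2A fold (circles) or width (squares). Ranks scatter widely around the line, shifts centre on 0, and the shift declines from 110 to 33.5 bp with fold but not with width.

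Presence of H3K4me3, a readout that the classes did not use, separated lost peaks from the other classes. An H3K4me3 peak was overlapped by 1533 of 1698 gained peaks (90.3%, 88.8 to 91.6), 2421 of 2559 shared peaks (94.6%, 93.7 to 95.4) and 2413 of 2553 kept peaks (94.5%, 93.6 to 95.3). Among lost peaks it was 583 of 779 (74.8%, 71.7 to 77.8). The interval of the lost peaks did not meet that of any other class. On chromosomes 1 to 22 and X alone, 555 of 724 lost peaks (76.7%) overlapped H3K4me3. The mark was measured in siControl cells, so gained peaks were set against H3K4me3 peaks of cells whose BG4 list did not hold the gained peaks.

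At equal rank the lost peaks kept this position. Lost peaks overlapped H3K4me3 less often than kept ones in all 10 deciles of siControl fold, for example 65.7% against 77.8% in the weakest decile, 82.4% against 98.0% in the fifth and 72.3% against 99.0% in the seventh. Gained peaks were below shared ones in 7 of 10 siBAZ2A deciles, with the widest gap in the fourth (89.4% against 95.4%) and one of 90.6% against 95.1% in the sixth. In the strongest decile all 31 gained peaks (100%) and 97.2% of shared peaks overlapped H3K4me3. With only the stronger 50% of the H3K4me3 peaks counted, the share among gained peaks exceeded that among shared peaks by 4.61 percentage points, the opposite direction. The lost share was then below the kept share by 6.12 points, instead of 19.7.

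**Figure D3:**
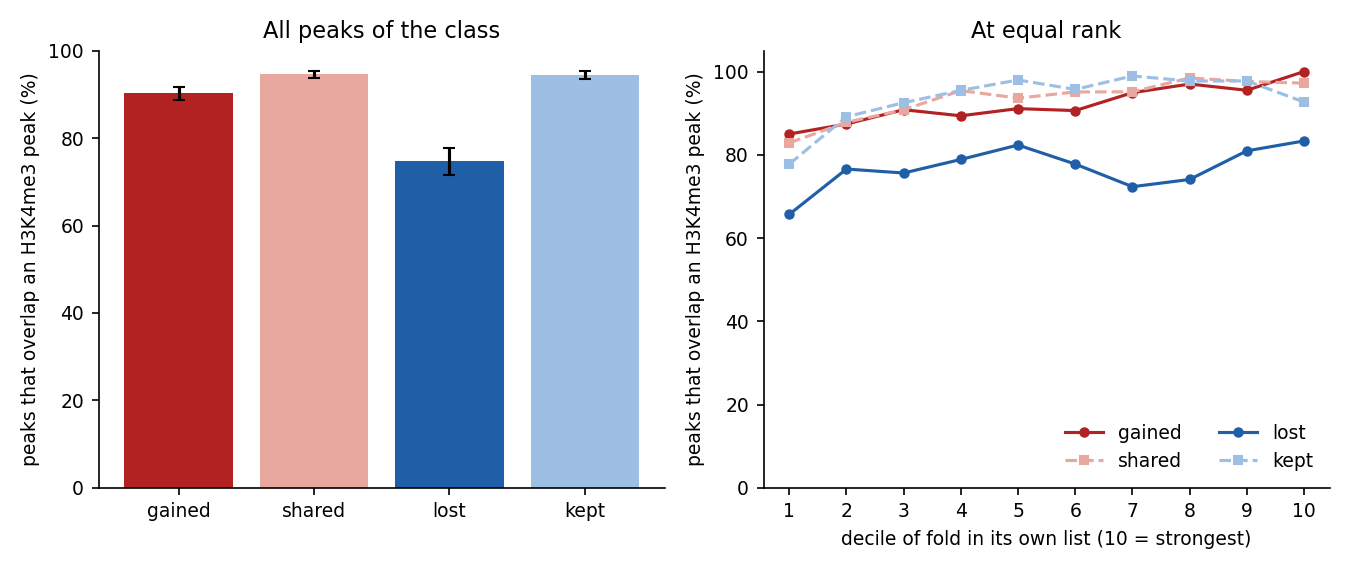
Share of peaks that overlap an H3K4me3 peak of siControl cells (%), left for all peaks of each class with 95% Wilson intervals (1698 gained, 2559 shared, 779 lost, 2553 kept) and right by decile of fold within the peak's own list. Lost peaks stand at 74.8% against 94.5% for kept peaks, and below kept peaks in all 10 deciles.

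Where a peak sat on H3K4me3, its distance from the H3K4me3 summit was similar across classes. Gained and lost summits lay nearer to the edge of the region, and their regions were also narrower. BG4 and H3K4me3 summits lay a median of 126 bp apart for gained peaks (119 to 134), 121 bp for shared (112 to 132), 138 bp for lost (121 to 159) and 118 bp for kept peaks (109 to 129). The BG4 summit lay inside the H3K4me3 peak for 99.0% of gained, 99.3% of shared, 97.1% of lost and 99.5% of kept peaks that overlapped one. From the BG4 summit to the nearer edge of the H3K4me3 peak the median was 409 bp for gained (392 to 426) and 452 bp for shared peaks (437 to 469), and 379 bp for lost (354 to 406) and 447 bp for kept peaks (432 to 459). The H3K4me3 regions under gained peaks had a median width of 1380 bp (1353 to 1409) and those under shared peaks 1480 bp (1454 to 1503). Under lost and kept peaks they were 1336 bp (1276 to 1394) and 1479 bp (1453 to 1503). A narrower region has its edges closer to a summit inside it, and the part of width in the edge distances was not tested.

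Most H3K4me3 regions held no BG4 peak. Of the 18596 regions, 14103 (75.8%) had one in neither list, 2414 (13.0%) in both lists, 1510 (8.12%) in siBAZ2A only and 569 (3.06%) in siControl only. Among the 2414 regions with a peak in both lists, 2382 had 1 in each. At least 2 BG4 peaks were held by 33 regions in siBAZ2A and by 17 in siControl. Of the 1533 gained peaks on H3K4me3, 19 (1.24%) lay in a region that had a siControl peak. Of the 583 lost ones, 12 (2.06%) lay in a region that had a siBAZ2A peak. A lost and a gained peak were found side by side in 8 regions.

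Few H3K4me3 regions differed by more than 1 peak. Outside chromosome 8, 9 regions had 2 BG4 peaks in siBAZ2A and none in siControl, and 3 regions the reverse. The first group included chr1:161101716-161103861, chr11:58345146-58347517, chr11:82611186-82613168, chr12:62996282-62998268 and chr17:7744882-7748465. The other group was chr12:53625351-53626747, chr17:73029595-73031547 and chr21:38738084-38740987. The region chr17:7744882-7748465 was 3584 bp wide and weak among H3K4me3 peaks by fold (percentile 4.00).

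Peaks off H3K4me3 were named by fold. The strongest gained ones were chr3:12851472-12852134 (fold 9.81, percentile 88.8), chr7:151384808-151385177 (9.10), chr1:55894790-55895280 (8.93), chr22:18841663-18842179 (8.67) and chr14:32953838-32954244 (8.10). Those on chromosomes 3, 1 and 14 also had a siBAZ2B peak. The strongest lost one, chr21:10819367-10819748 (fold 13.2, percentile 98.5), lay 993 kb from any siBAZ2A peak and had a siBAZ2B peak. It was followed by chr7:1311793-1312521 (9.07), chr15:40975139-40975587 (8.89), chr20:36035611-36035929 (8.85) and chr1:11582602-11583013 (8.76), and of these 4 only the locus on chromosome 7 had a siBAZ2B peak.

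Gained peaks were more isolated than shared ones. The median distance to the nearest other siBAZ2A peak was 116 kb for gained peaks (107 to 128) and 64.1 kb for shared peaks (59.6 to 68.9). A neighbour within 10 kb was found for 119 gained peaks (7.01%, 5.89 to 8.32) and 313 shared peaks (12.2%, 11.02 to 13.6), and gained peaks had the lower share in all 10 deciles of fold. The surroundings were also poorer in H3K4me3 peaks. Within 100 kb, a gained peak had a mean of 3.09 other H3K4me3 peaks and a shared peak 4.05, and none were found around 16.3% of gained and 11.4% of shared peaks.

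Lost peaks did not stand apart in this way. Their nearest other siControl peak lay at a median of 85.2 kb (67.8 to 97.0), against 76.8 kb for kept peaks (70.7 to 83.1). Within 10 kb, 113 lost peaks (14.5%, 12.2 to 17.2) and 296 kept peaks (11.6%, 10.4 to 12.9) had a neighbour, but at equal rank lost peaks had the lower share in 8 of 10 deciles. With lists of equal length the lost share within 10 kb was the higher by 8.13 percentage points (5.64 to 10.8). With a limit of 100 kb the shares were 54.9% and 55.4%, and in the stronger 50% of each list lost peaks had the lower share by 2.15 percentage points. Close neighbours in this list were more frequent off H3K4me3 in both classes. There 24.5% of lost (19.0 to 31.0) and 29.3% of kept peaks (22.4 to 37.3) had one within 10 kb, against 11.1% (8.84 to 14.0) and 10.6% (9.40 to 11.9) on H3K4me3.

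Gained peaks also lay far from siControl peaks. The median distance from a gained peak to the nearest siControl peak was 157 kb (140 to 182; quartiles 47.4 and 621 kb), and 292 of them (17.2%) were more than 1 Mb away. From a lost peak to the nearest siBAZ2A peak it was 73.3 kb (63.0 to 87.5), and 51 (6.55%) were more than 1 Mb away. In the longer siBAZ2A list the peaks lie closer to any point. With lists of equal length the medians were 190 kb for gained and 93.6 kb for lost peaks, in the same order. The gained peak farthest from siControl, chr18:33709447-33709898 on H3K4me3, lay 11747 kb away, a position chosen after its value was seen.

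**Figure D4:**
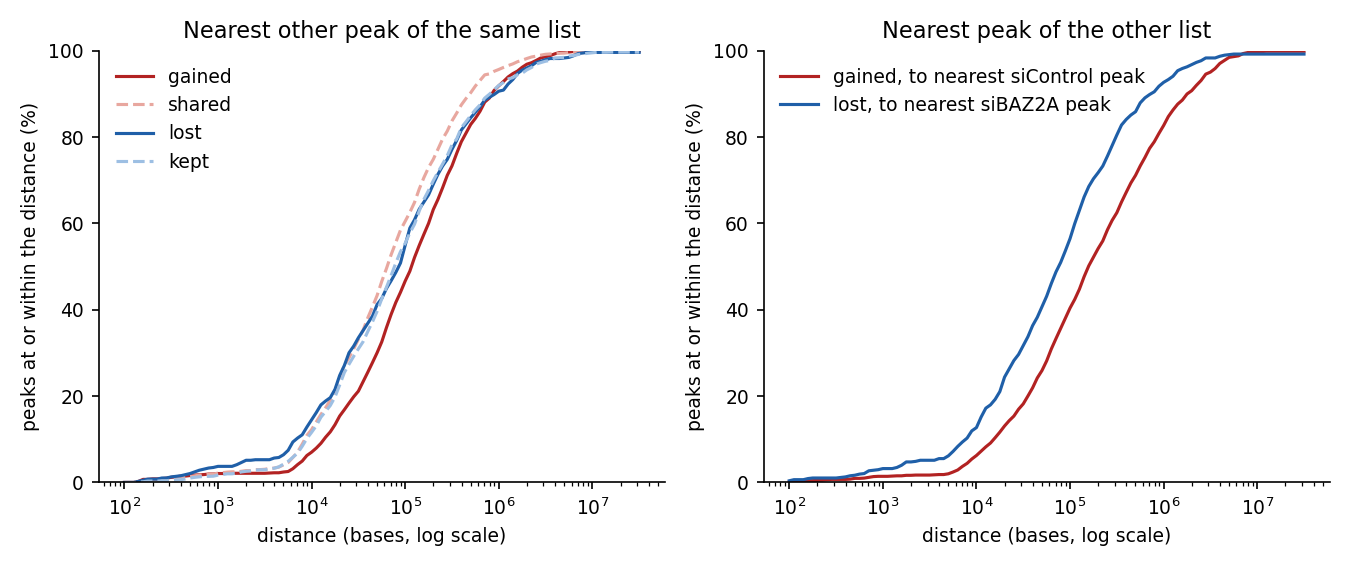
Cumulative share of peaks (%) by distance in bases (log scale), left to the nearest other peak of the same list for gained and shared (siBAZ2A) and lost and kept (siControl) peaks, right from gained peaks to the nearest siControl peak and from lost peaks to the nearest siBAZ2A peak. Within 10 kb of another peak of their list are 7.01% of gained and 12.2% of shared peaks, and the right panel passes 50% at 157 kb for gained and 73.3 kb for lost peaks.

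Most gained and lost peaks had no peak of their own class next to them within 100 kb. A run was defined as consecutive peaks of 1 class, each within 100 kb of the next with no peak of the other class between them. Gained peaks formed 1505 runs, of which 1340 held a single peak, 142 held 2 and 23 held 3 or more. Lost peaks formed 693 runs, of which 630 were single, 51 held 2 and 12 held 3 or more. A single peak may have a matched neighbour or none, since 46.6% of all gained and 54.9% of all lost peaks had any other peak of their list within 100 kb. In runs of at least 2 were 21.1% of gained and 19.1% of lost peaks, against 46.0% of shared and 46.5% of kept peaks, which are also more numerous. The longest shared run held 17 peaks and the longest gained run 5.

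The longest gained run covered 143 kb at chr1:156594258-156737333. Its 5 peaks had folds of 5.24, 7.09, 8.03, 6.64 and 4.52 from the lower to the higher coordinate, all 5 lay on H3K4me3, and no siControl peak fell among them. The 3 inner ones also had a siBAZ2B peak. The next runs held 4 peaks each, at chr2:85765885-85829840, chr14:105438692-105558455 and chr3:183903709-184081210. All 4 on chromosome 3 and 1 on chromosome 2 had a siBAZ2B peak. The run on chromosome 14 was weak, between percentiles 0.775 and 4.39.

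The longest lost run among mapped chromosomes covered 145 kb at chr16:2587485-2732870. Its 6 peaks had folds from 6.08 to 8.30 (percentiles 29.3 to 73.1), all lay on H3K4me3, and the span held no siBAZ2A peak. The siBAZ2B list held 5 of the 6. A run of 4 lost peaks at chr12:53625710-53715471 also lay on H3K4me3. A run of 4 at chr2:92297294-92313450 lay off H3K4me3 within 16.2 kb, with folds from 3.71 to 5.49, and all 4 had a siBAZ2B peak. Counts of siBAZ2B peaks at named gained and lost loci are given without the share over all peaks of the class. They describe those loci only.

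In windows of 1 Mb the excess of siBAZ2A peaks was spread over the genome. Of 1544 windows with any peak on chromosomes 1 to 22, X and Y, 866 held more siBAZ2A than siControl peaks, 255 held fewer and 423 held equal numbers. No window differed by more than 5 peaks. Windows with both gained and lost peaks numbered 293. The window with most siBAZ2A peaks, 49 to 50 Mb of chromosome 19, held 27 against 22 in siControl, and the next, 73 to 74 Mb of chromosome 17, held 23 against 25. Among chromosomes 1 to 22 and X, the lost share was lowest on chromosome 19 (15.8%, 12.3 to 20.1). It was highest on chromosome 13 (39.3%, 23.6 to 57.6), where 28 siControl peaks were listed. The gained share was also lowest on chromosome 19 (24.9%, 20.8 to 29.5) and highest on chromosome 13 (61.4%, 46.6 to 74.3).

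Unplaced contigs, sequences that the hg19 build assigns to no chromosome, held more siControl peaks (31) than siBAZ2A peaks (15), although the siBAZ2A list is the longer. Of the siControl peaks there 19 were lost (61.3%, 43.8 to 76.3), against 724 of 3216 (22.5%, 21.1 to 23.99) on chromosomes 1 to 22 and X. Of the 19, 1 overlapped H3K4me3, against 7 of all 31 siControl peaks there. Contig gl000225 held 7 siControl peaks (folds 3.75 to 7.13), all lost, and 1 siBAZ2A peak, which was gained. Contig gl000216 held 4 siControl peaks, all lost, and no siBAZ2A peak. Neither contig held an H3K4me3 peak. The siBAZ2B list had peaks at 3 of the 7 and at 2 of the 4 sites, again without the share over all lost peaks, which describes these sites only. Reads from repeated sequence can be placed at several copies, and the part of their handling in these counts was not tested.

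Contig gl000220 is known to carry ribosomal DNA, the sequence whose silencing BAZ2A is known for. Both lists held the same 2 broad peaks there, 44.0 kb apart by their starts. In siControl they spanned positions 105182 to 106961 (fold 2.79) and 149154 to 150911 (fold 2.90), and in siBAZ2A 104738 to 106797 (2.98) and 148708 to 150864 (2.88). These were among the weakest peaks of either list by fold, between percentiles 0.164 and 0.270, and their −log10 q lay between 8.33 and 10.1. The siBAZ2A peaks were wider, 2060 and 2157 bp against 1780 and 1758 bp, and began at a lower coordinate. Both overlapped an H3K4me3 peak at that side (104298 to 105163 and 148277 to 148962), which the siControl BG4 peaks did not reach. At the first place the siControl peak began just past the end of the H3K4me3 peak. In siBAZ2B the same 2 places held 3 and 2 narrower peaks. The first of these at each place began at 104570 and 148562, lower still, and overlapped the same H3K4me3 peaks. Whether the 2 places are copies of the same ribosomal sequence that share reads was not tested. They are therefore not taken as independent loci. The widths and starts carry no value per replicate, and their differences between the lists were not tested.

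Around these ribosomal peaks the lists differed in 3 peaks. The siControl list alone had a peak at 93540 to 94005 (fold 5.47) and one at 160852 to 161199 (2.37), and the siBAZ2A list alone had one at 159818 to 160186 (2.26). The first peak of the contig, at 6969 to 8244 in siBAZ2A (fold 11.3, percentile 95.5) and 6998 to 8251 in siControl (11.05, percentile 94.6), was strong in both. The siControl sites that were lost on this contig were chosen after their values were seen.

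**Figure D5:**
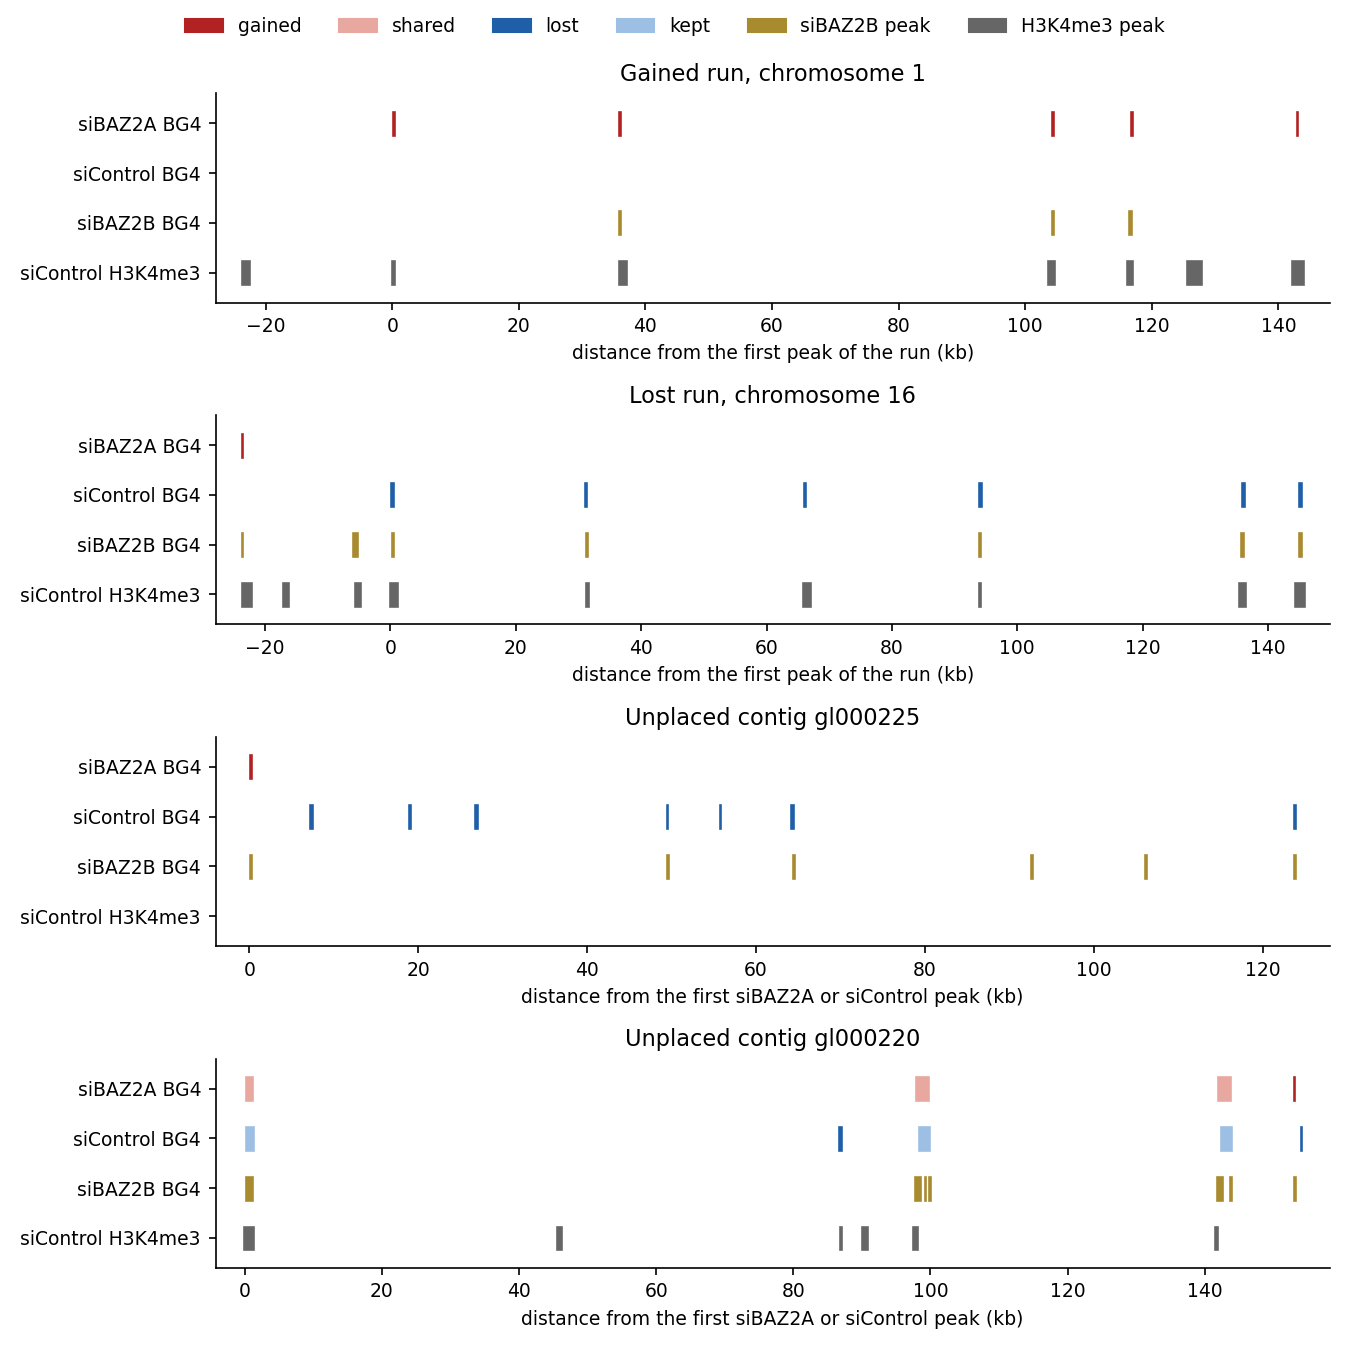
Peaks of the siBAZ2A, siControl, siBAZ2B and H3K4me3 lists drawn to scale as bars in 4 places, by distance in kb from the first peak; colours give the class (gained, shared, lost, kept). From the top: the run of 5 gained peaks on chromosome 1, the run of 6 lost peaks on chromosome 16, contig gl000225 with 7 lost peaks and no H3K4me3, and contig gl000220, where 2 broad peaks 44.0 kb apart are in both lists.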

How the data were processed

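BG4 CUT&Tag peak lists of siBAZ2A and siControl A549 cells (4 replicates each) were compared. Per the submitters' processing notes, the tools were MACS2 2.1.4, bedtools, SAMtools 1.15.1, Picard and Bowtie2 2.4.5, and the builds were dm6 and hg19. From the labels, a peak had to be present in at least 2 replicates, and the authors then took the rows of the largest peak file. The deposited column 7 is the fold enrichment (a ratio) and the deposited column 9 the −log10 of the q-value. Column 10 gives the summit. The sources used here give no depth per sample, and its effect on peak number and width was not tested.

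Coordinates are hg19, written 1-based. Distances are bases between peak edges. Medians carry 95% intervals from binomial order statistics and shares 95% Wilson intervals. Overlap, distance and run functions were tested on simulated lists. The members and lists were chosen with earlier results of these data known. Loci are named by position, by a rule on fold, width, rank, summit distance, overlap, runs, windows and H3K4me3 regions (the 3 or 5 most extreme of each, of which the text gives those it discusses). Loci on chromosome 8 were counted but not named. Windows and peaks described as chosen after their values were seen fall outside that rule. Genes, G4 motifs and peak sequences were not analysed here, since no hg19 reference was used. Alternatives were lists of equal length, the stronger 50% of each list, peaks with −log10 q of 5 or more, a reciprocal overlap of 50%, a gap of up to 1 kb, omission of chromosome M, chromosome Y and contigs, 100 kb as near, rank by −log10 q, and stricter H3K4me3 overlap. The work used matplotlib 3.10.9, SciPy 1.17.1, NumPy 2.4.6 and pandas 2.3.3 under Python 3.11.15.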

Additional observations from a re-analysis of the deposited data

How the results depend on the processing

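No paired analysis was possible because only merged lists of the 4 replicates were used, which also prevented omission of single replicates. Of 98 values under the alternatives, 65 stayed near the reported ones, 30 moved beyond the counting interval (for numbers of peaks, beyond 1.5 times) and 3 changed direction. Differences below are gained minus shared, or lost minus kept. With lists of equal length, 1109 peaks were gained, the rank differences were -25.8 and -38.9 percentile points, the differences in neighbours within 10 kb were -3.41 and 8.13 percentage points, and the distances to the other list were 190 kb (gained) and 93.6 kb (lost). With the stronger 50% of each list, which keeps fewer peaks by construction, 896 were gained and 434 lost, width differences were -140.5 and -164.5 bp, neighbour differences -2.70 and -2.15 points (the latter reversed) and H3K4me3 differences -2.07 and -9.52 points. There the summit shift was 49 bp, the distances 267 and 177 kb, and the H3K4me3 regions 1196 in both lists and 853 in siBAZ2A only. With −log10 q of 5 or more, the rank differences were -25.9 and -27.6, the lost minus kept H3K4me3 difference -15.9, the summit shift 59 bp and the distances 198 and 92.2 kb. Ranking by −log10 q gave -34.9 and -37.8. With 100 kb as near, the neighbour differences were -13.8 and -0.444 points, the latter reversed. A reciprocal overlap of 50% gave a lost minus kept H3K4me3 difference of -15.9. Against the stronger 50% of H3K4me3 peaks the differences were 4.61 (reversed) and -6.12 points. Where nothing in a setting's construction shows it, the cause was not tested. The occupancy of H3K4me3 regions does not use the overlap rule and has no value under it.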

Other observations

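Chromosome M, whose DNA is not packed in nucleosomes, held 3 siBAZ2A and 2 siControl peaks. A siControl peak of 2711 bp (positions 108 to 2818, fold 2.01) was met by a siBAZ2A peak at 89 to 2152 (fold 2.02) and a narrow one at 2460 to 2910 (fold 1.29). At the other end, 12992 to 16491 in siBAZ2A (fold 2.16) lay over 12857 to 16485 in siControl (fold 1.88). All 5 were shared or kept, with percentiles of fold between 0.0235 and 0.0900. Their −log10 q was high in spite of the low fold, 38.5 for the last siBAZ2A peak and 23.3 for its siControl partner. The H3K4me3 list also held 3 peaks on chromosome M, and 2 of the 3 siBAZ2A and both siControl peaks overlapped one.

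Alternate haplotype contigs of the build, mostly copies of the histocompatibility region of chromosome 6, held 52 siBAZ2A and 62 siControl peaks. Of the siBAZ2A peaks 18 were gained (34.6%, 23.2 to 48.2), against 39.9% of the whole list. Of the siControl peaks 28 were lost (45.2%, 33.4 to 57.5), against 23.4% of the whole list. In contrast to unplaced contigs, 26 of the 28 lost peaks there overlapped H3K4me3, as did 59 of all 62 siControl peaks there (95.2%). The copies share sequence, so these peaks are not independent loci.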
